A study of Homo sapiens with 11 samples.

Results

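The genes described here are 34 human genes of the endoplasmic reticulum (ER) that fold, check and dispose of secretory and membrane proteins, or that switch those functions on in the unfolded protein response. They were taken by name from the deposited expression table, as genes of ER folding, ER-associated degradation (ERAD) and targets of the transcription factors ATF6 and XBP1, provided that 2 or more libraries held a log2 value of at least 3.32. All 34 were in the table and all 34 passed that rule, out of 40460 Ensembl genes in the table and 17945 that passed the same rule. The rule itself uses gene names and this level and no difference between groups, but the names were proposed with earlier results of these data known.

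The cells were hTert-HME1, a line of human mammary epithelial cells made immortal with telomerase, at passage 6 in mammary epithelial growth medium. Total RNA was depleted of ribosomal RNA and sequenced in 11 libraries of 4 groups. Cells that had received the control siRNA, labelled control-2, gave 3 libraries in complete medium with EGF (replicates A, B and C) and 2 in medium without EGF (A and C). Cells that had received a BRCA2 siRNA gave 3 libraries with EGF and 3 without it, each time replicates A, B and C. All 11 libraries came from transfected cells of this 1 line, so none shows untransfected cells. The letters are given in the labels as biological replicates, with nothing on whether they were separate cultures, so p-values measure the spread between these libraries, part of which may be technical. The study compared the siRNAs and the media, and the questions here are how these ER genes differed with EGF withdrawal under each siRNA, and with BRCA2 siRNA in each medium.

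Proteins bound for the cell surface or the medium enter the ER through the SEC61 channel, are folded by lumenal chaperones such as HSPA5 (BiP) and HSP90B1 (GRP94), gain disulfide bonds from protein disulfide isomerases, and leave in COPII vesicles. Proteins that fail are returned to the cytosol and degraded, the process named ERAD. When unfolded proteins build up, the sensors ATF6, IRE1 (gene ERN1) and PERK (gene EIF2AK3) respond: ATF6 is cut to release a transcription factor, IRE1 splices the XBP1 mRNA, and PERK slows translation and raises ATF4. EGF is a growth factor on which mammary epithelial cells in this kind of medium depend.

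The DNA elements through which ATF6 and XBP1 act are shown first, because they are what many of these genes have in common besides their function. In the RefSeq table of promoters on GRCh38.p14, which covers a short window around each gene start, 30 of the 34 genes had an entry, and PDIA3, DERL1, DERL3 and SEC24D did not. The ER stress element, CCAAT followed by any 9 bases and CCACG, was searched on both strands and was present in 22 of 27305 promoters (0.0806%) and in 7 of the 30 (23.3%). The shorter ER stress element II, ATTGG, any 1 base, then CCACG, was present in 15 promoters (0.0549%) and in 3 of the 30 (10%). The core of the unfolded protein response element, TGACGTGG, was found in 217 promoters (0.795%) and in 1 of the 30, HYOU1, where it overlaps 1 of the 2 elements of type II. The CCAAT box alone, which is part of both ER stress elements, stood in 9747 promoters (35.7%) and in 25 of the 30 (83.3%). The 34 genes include names chosen as ATF6 and XBP1 targets, so these shares describe the choice and were not tested. A match is a run of letters and not a measured binding site.

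The stretches of the 10 promoters with an ER stress element are printed on each gene's own strand, from upstream to downstream, with the 2 fixed parts of each element in capitals. Read from the opposite strand an element shows as CGTGG before ATTGG (type I) or before CCAAT (type II).
HSPA5, chr9:125241381-125241419, minus strand: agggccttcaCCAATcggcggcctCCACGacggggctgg
HSP90B1, chr12:103930206-103930349, plus strand: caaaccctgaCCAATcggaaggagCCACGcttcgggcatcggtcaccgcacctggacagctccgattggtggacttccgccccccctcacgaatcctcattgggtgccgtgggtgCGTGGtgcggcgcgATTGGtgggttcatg
HYOU1, chr11:119057264-119057400, minus strand: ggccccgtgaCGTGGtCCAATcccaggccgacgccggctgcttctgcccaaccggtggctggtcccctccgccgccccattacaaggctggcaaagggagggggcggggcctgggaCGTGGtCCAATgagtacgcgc
CALR, chr19:12938374-12938412, plus strand: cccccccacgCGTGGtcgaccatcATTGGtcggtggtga
CANX, chr5:179698768-179698806, plus strand: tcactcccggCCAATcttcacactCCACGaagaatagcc
SDF2L1, chr22:21642104-21642134, plus strand: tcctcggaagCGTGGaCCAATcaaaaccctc
CRELD2, chr22:49918544-49918582, plus strand: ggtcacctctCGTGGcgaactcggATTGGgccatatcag
ERO1B, chr1:236282173-236282208, minus strand: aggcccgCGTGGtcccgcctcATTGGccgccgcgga
XBP1, chr22:28800593-28800631, minus strand: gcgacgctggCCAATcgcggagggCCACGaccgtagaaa
HERPUD1, chr16:56932015-56932045, plus strand: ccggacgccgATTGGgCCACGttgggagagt
HSP90B1 and HYOU1 carried 2 elements each, and the other 8 carried 1.

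The labels and cells were checked first. The BRCA2 siRNA label did not go with less BRCA2 mRNA. With EGF this mRNA stood at 12.45, 12.13 and 12.48 on the log2 scale in control replicates A, B and C and at 12.44, 12.37 and 12.40 under the BRCA2 label, a log2 difference of 0.05 ± 0.12 (moderated standard error, limma, adjusted p = 1). In medium lacking EGF its level under the BRCA2 label exceeded that of the control by 0.76 ± 0.13 (adjusted p = 0.00551). Every difference between siRNAs below is therefore one between labels. All 7 basal mammary epithelium markers passed the rule, with a summed level of 18.55 to 18.67 in control libraries with EGF and 19.49 to 19.68 without it, and 18.65 to 18.73 and 19.14 to 19.35 with BRCA2 siRNA. All 4 general epithelium markers passed and summed to 15.17 to 15.34 with EGF and 17.09 to 17.12 without it in control libraries, and to 14.99 to 15.35 and 15.89 to 16.28 with BRCA2 siRNA. Of the 8 luminal markers, EPCAM, KRT19 and ELF5 were under the rule in all groups, and the list summed to 12.37 to 12.62 and 12.21 to 12.24 in control libraries with and without EGF and to 12.49 to 12.54 and 12.03 to 12.17 with BRCA2 siRNA. None of 4 leukocyte markers passed the rule, 1 of 3 endothelial markers did, and of 5 markers of secretory cells rich in ER only SDC1 did. The 5 fibroblast markers that passed, of 6, summed to 10.67 to 11.04 with EGF and 13.03 to 13.15 without it in control libraries, and to 10.84 to 10.99 and 11.83 to 12.55 with BRCA2 siRNA, with COL1A2 between 1.31 and 1.84 throughout. The part of these marker shifts in the results was not tested, and in bulk RNA fewer cells of a type and less RNA per cell cannot be told apart. In every gene of the table the mean of the replicate A libraries equalled that of the B and C libraries, so levels of A are comparable with levels of B or C only through the fit, which has a term for A.

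EGF withdrawal under control siRNA was accompanied by lower mRNA of most of the protein-folding genes. Of the 34 genes, 21 fell, 2 rose (DERL3 and OS9) and 11 did not pass an adjusted p of 0.05. Among all 17945 genes tested 24.4% fell and 22.6% rose. The median log2 difference was -0.60 over the 34 genes and -0.00 over all genes tested. Against the more abundant genes (value of at least 6 in at least 2 libraries) the set lay apart less far, since 4209 of 12733 such genes fell, with a median of -0.14. Every control library without EGF lay below every control library with EGF for 22 of the 34 genes, against 33.6% of all genes, and above them for 2, against 32.9%. These counts, and statements below on whether groups overlap, are on the deposited values and so set A against B and C with the centring in them. Within replicate A and within replicate C, a comparison that the centring does not touch, 26 of the 34 genes were lower without EGF in both, against 41.1% of all genes. Without the control library of replicate A lacking EGF, 1 library is left in that group. The median log2 difference was then -0.57 over the 34 genes and -0.01 over all genes.

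**Figure D1:**
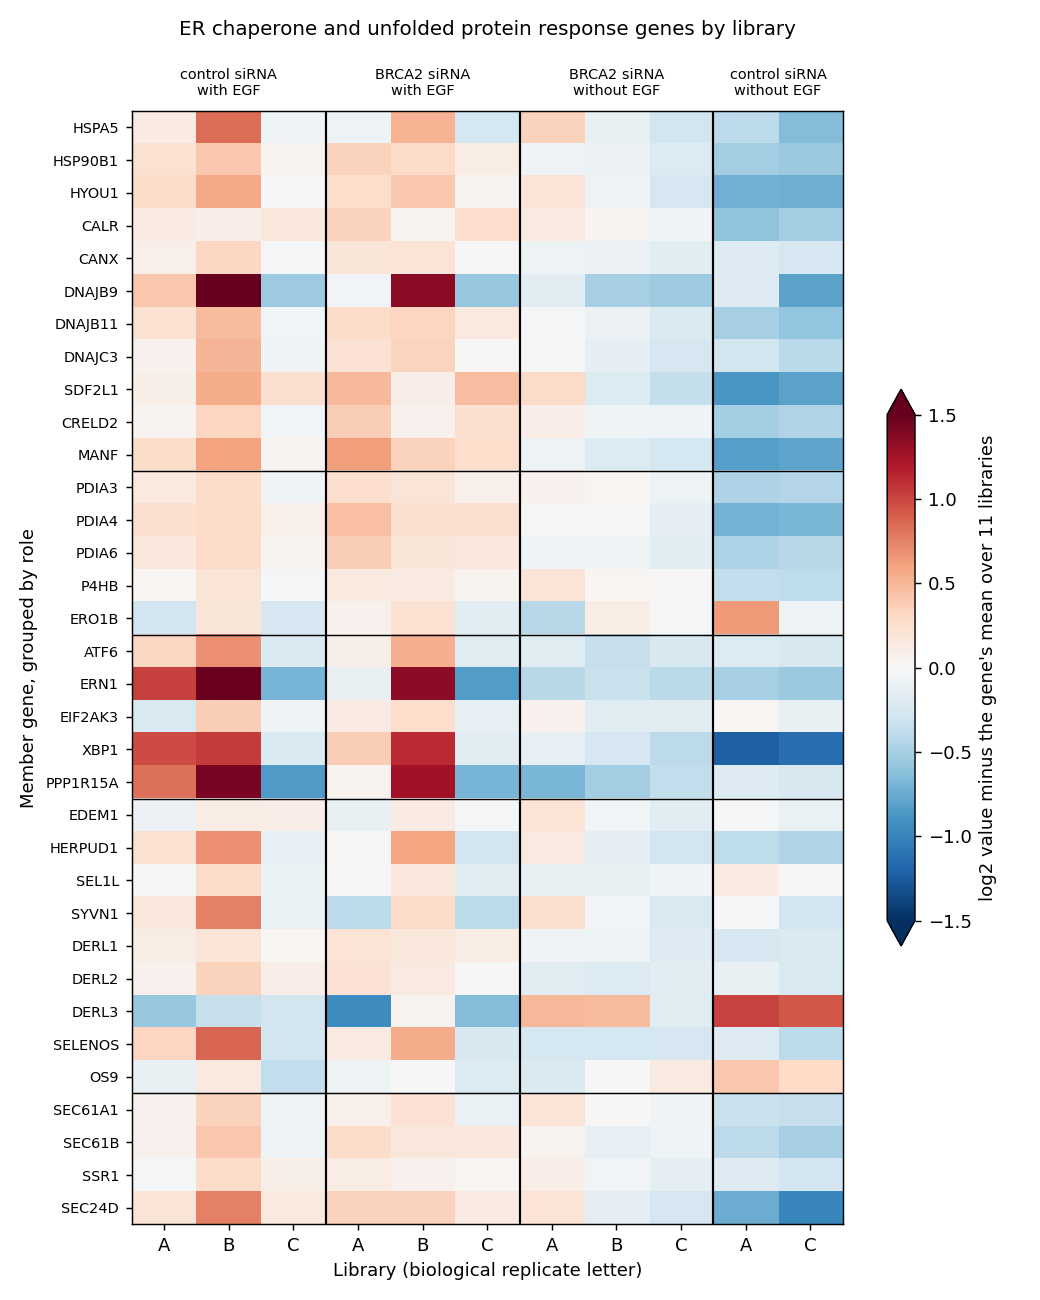
Each row is 1 of the 34 genes, grouped by role from lumenal chaperones (top) to translocation and vesicle export (bottom), and each column is 1 library, with the replicate letter below. Colour is the log2 value minus that gene's mean over the 11 libraries, with colours saturated at 1.5; the 2 control libraries without EGF at the right are the lowest for most folding genes, and DERL3 and OS9 are higher there.

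Of the lumenal chaperones and their partners 10 of 11 fell in control cells and none rose, with a median of -0.78. Of all genes tested 24.4% fell there and 22.6% rose. MANF, a small secreted ER protein that binds BiP (ENSG00000145050), had the smallest p of this group. It was at 11.87, 12.21 and 11.65 in control replicates A, B and C with EGF and at 10.77 and 10.81 in A and C without it. The groups did not overlap, and the log2 difference was -1.14 ± 0.15 (2.2-fold lower, adjusted p = 0.000268). Under BRCA2 siRNA MANF was at 12.23, 11.95 and 11.86 with EGF and 11.53, 11.40 and 11.34 without, a fall of -0.59 ± 0.14 (adjusted p = 0.0147). SDF2L1, which works with BiP and its DNAJ partners, fell in control cells by 1.15 ± 0.21 and HYOU1, a large chaperone that exchanges nucleotide on BiP, fell by 1.03 ± 0.18.

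CALR, the calreticulin that holds glycoproteins during folding, had replicates close together. It was at 14.92, 14.89 and 14.96 with EGF and at 14.19 and 14.27 without it under control siRNA. The gap between the groups was several times the range inside either, and the fall was -0.71 ± 0.10 (adjusted p = 0.000399). Under BRCA2 siRNA its values were 15.14, 14.83 and 15.04 with EGF and 14.92, 14.83 and 14.73 without. Those groups overlapped, and the difference of -0.17 ± 0.09 did not pass (adjusted p = 0.185). CANX, its membrane-bound relative calnexin, fell less in control cells, by 0.35 ± 0.12. HSP90B1 fell by 0.78 ± 0.12, DNAJB11 by 0.78 ± 0.14, CRELD2 by 0.60 ± 0.13 and DNAJC3 by 0.52 ± 0.17.

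HSPA5, the chaperone BiP that keeps the sensors inactive, was more variable. It stood at 14.36, 15.08 and 14.18 in control replicates with EGF, and at 13.85 and 13.60 in A and C without it. Both libraries without EGF were below all 3 with EGF, but replicate B lay well above A and C. The difference was -0.83 ± 0.30 with an adjusted p of 0.0418, and leaving out any 1 of 7 libraries (all but control replicate C with EGF, BRCA2 siRNA replicates B and C with EGF, and BRCA2 siRNA replicate A without EGF) raised it to between 0.0501 and 0.234. Under BRCA2 siRNA, HSPA5 was at 14.17, 14.76 and 13.98 with EGF and at 14.59, 14.14 and 13.97 without, and these groups overlapped (difference -0.07 ± 0.27). DNAJB9, a BiP partner that recruits it to IRE1, was the member of this group that did not pass: 10.49, 11.69 and 9.54 with EGF and 9.89 and 9.28 without. The 3 libraries with EGF spanned 2.15 log2 units, more than the fitted 2-fold difference (standard error 0.62 log2 units, adjusted p = 0.206).

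Of the enzymes of disulfide bond formation, 4 of 5 fell in control cells, where 24.4% of all genes fell. PDIA4, a protein disulfide isomerase with several thioredoxin-like domains (ENSG00000155660), had the smallest p of all 34 genes. It was at 13.95, 13.98 and 13.78 with EGF and at 13.00 and 13.02 without it. The fall was -0.91 ± 0.09 (1.88-fold, adjusted p = 5.94e-05), and no library of the groups overlapped. PDIA6 fell by 0.62 ± 0.10, PDIA3, the isomerase that works with calnexin and calreticulin, by 0.58 ± 0.11, and P4HB, the founding isomerase and a subunit of prolyl hydroxylase, by 0.44 ± 0.09. ERO1B, an oxidase that recharges the isomerases, did not pass. Its values were 6.84, 7.31 and 6.87 with EGF and 7.77 and 7.05 without, so replicate A alone lay clear of the libraries with EGF. Its difference was 0.41 ± 0.26 (adjusted p = 0.21). ERO1A, the other oxidase and no member of the set, fell by 0.76 ± 0.10 (adjusted p = 0.000262).

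Among the sensors, transcription factors and feedback genes, 1 of 5 passed the test in control cells, a fall. This is near the 24.4% of all genes that fell there. XBP1 (ENSG00000100219), the transcription factor whose mRNA IRE1 splices, had the largest fall of the 34 genes, -1.80 ± 0.39 (3.49-fold lower, adjusted p = 0.00402). It was at 14.00, 14.06 and 12.80 with EGF and at 11.80 and 11.88 without it. Both libraries without EGF were lower than all 3 with EGF, although replicate C with EGF stood more than 1 unit below A and B. The table counts genes, so the spliced and unspliced forms of XBP1 were not separated. Under BRCA2 siRNA XBP1 was at 13.39, 14.14 and 12.86 with EGF and 12.89, 12.77 and 12.63 without, groups that overlapped, with a difference of -0.70 ± 0.35 (adjusted p = 0.168).

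The 3 sensor genes themselves did not pass. EIF2AK3 (ENSG00000172071), the gene of PERK, was at 10.22, 10.81 and 10.38 with EGF and 10.48 and 10.33 without it, with a difference of -0.07 ± 0.18. ATF6 differed by -0.49 ± 0.25 and ERN1 by -1.14 ± 0.65. For ERN1 the difference was large but its replicates disagreed: 11.33, 11.80 and 9.61 with EGF against 9.82 and 9.75 without, so that it was 1.51 lower without EGF within replicate A and 0.14 higher within replicate C. PPP1R15A (GADD34), the phosphatase subunit that restarts translation after PERK acts, likewise was 1.03 lower within A and 0.61 higher within C. Fitted over all libraries its difference was -0.69 ± 0.63 (adjusted p = 0.389).

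ERAD genes were mixed. In control cells 2 of 9 fell (DERL1 and DERL2), 2 rose (DERL3 and OS9) and 5 did not pass. Of all genes tested 24.4% fell and 22.6% rose, so these counts were near those of any genes. The derlins are membrane proteins of the channel through which misfolded proteins leave. DERL1 fell by 0.35 ± 0.09 (adjusted p = 0.00847) and DERL2 by 0.34 ± 0.11 (adjusted p = 0.0262). DERL3 (ENSG00000099958) went the other way: 3.64, 3.85 and 3.92 with EGF and 5.22 and 5.14 without, a rise of 1.40 ± 0.30 (2.63-fold, adjusted p = 0.00385). The groups did not overlap, but these values lie just above the cut-off of 3.32, and an exon of DERL3 overlaps SMARCB1 on the opposite strand. OS9, a lectin that hands misfolded glycoproteins to the ligase complex, rose from 12.19, 12.44 and 11.93 to 12.70 and 12.60, by 0.47 ± 0.15 (adjusted p = 0.0274).

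The core of the ERAD ligase complex showed no difference that passed. SEL1L (ENSG00000071537), its scaffold, was at 12.55, 12.85 and 12.46 with EGF and at 12.68 and 12.56 without it. The libraries without EGF lay inside the range of those with it, and the difference was 0.00 ± 0.13 (adjusted p = 0.99). SYVN1, the ubiquitin ligase HRD1, differed by -0.43 ± 0.28, and EDEM1, a mannosidase-like protein that marks glycoproteins for disposal, by -0.10 ± 0.13. HERPUD1, a membrane partner of HRD1, differed by -0.69 ± 0.27 and just missed the threshold (adjusted p = 0.0555), and SELENOS, a selenoprotein that binds the derlins, differed by -0.60 ± 0.29 (adjusted p = 0.117).

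All 4 genes of entry into and export from the ER fell in control cells, with a median of -0.53, where 24.4% of all genes fell. SEC24D (ENSG00000150961), a cargo-binding subunit of the COPII coat, was at 12.37, 12.93 and 12.33 with EGF and at 11.44 and 11.20 without it. The fall was -1.25 ± 0.19 (2.37-fold, adjusted p = 5e-04), with no overlap. SEC61A1 and SEC61B, the pore and a small subunit of the SEC61 channel, fell by 0.46 ± 0.14 and 0.59 ± 0.13. SSR1 (ENSG00000124783), a subunit of the translocon-associated TRAP complex, had the largest p of the 4: 13.08, 13.39 and 13.20 with EGF, 12.92 and 12.82 without, a fall of -0.36 ± 0.11 (adjusted p = 0.0216).

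Leaving out each library in turn kept 13 of the 23 calls in control cells every time: HSP90B1, HYOU1, CALR, DNAJB11, SDF2L1, MANF, PDIA3, PDIA4, PDIA6, P4HB, XBP1, DERL3 and SEC24D. The calls for CRELD2 (adjusted p = 0.0535) and DERL1 (0.0802) ended without control replicate A lacking EGF, and that for SEC61B (0.0526) without control replicate C lacking EGF. Those for DNAJC3 (0.0928 to 0.157) and SEC61A1 (0.0939 to 0.112) ended without either of these 2 libraries. The calls for CANX (0.0543 to 0.166), DERL2 (0.0636 to 0.197), SSR1 (0.0505 to 0.155) and OS9 (0.0678 to 0.193) ended without either of them and also without control replicate A with EGF (CANX, OS9) or control replicate B with EGF (CANX, DERL2, SSR1). CALR, SDF2L1, MANF, PDIA4 and SEC24D also passed in every other alternative run.

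**Figure D2:**
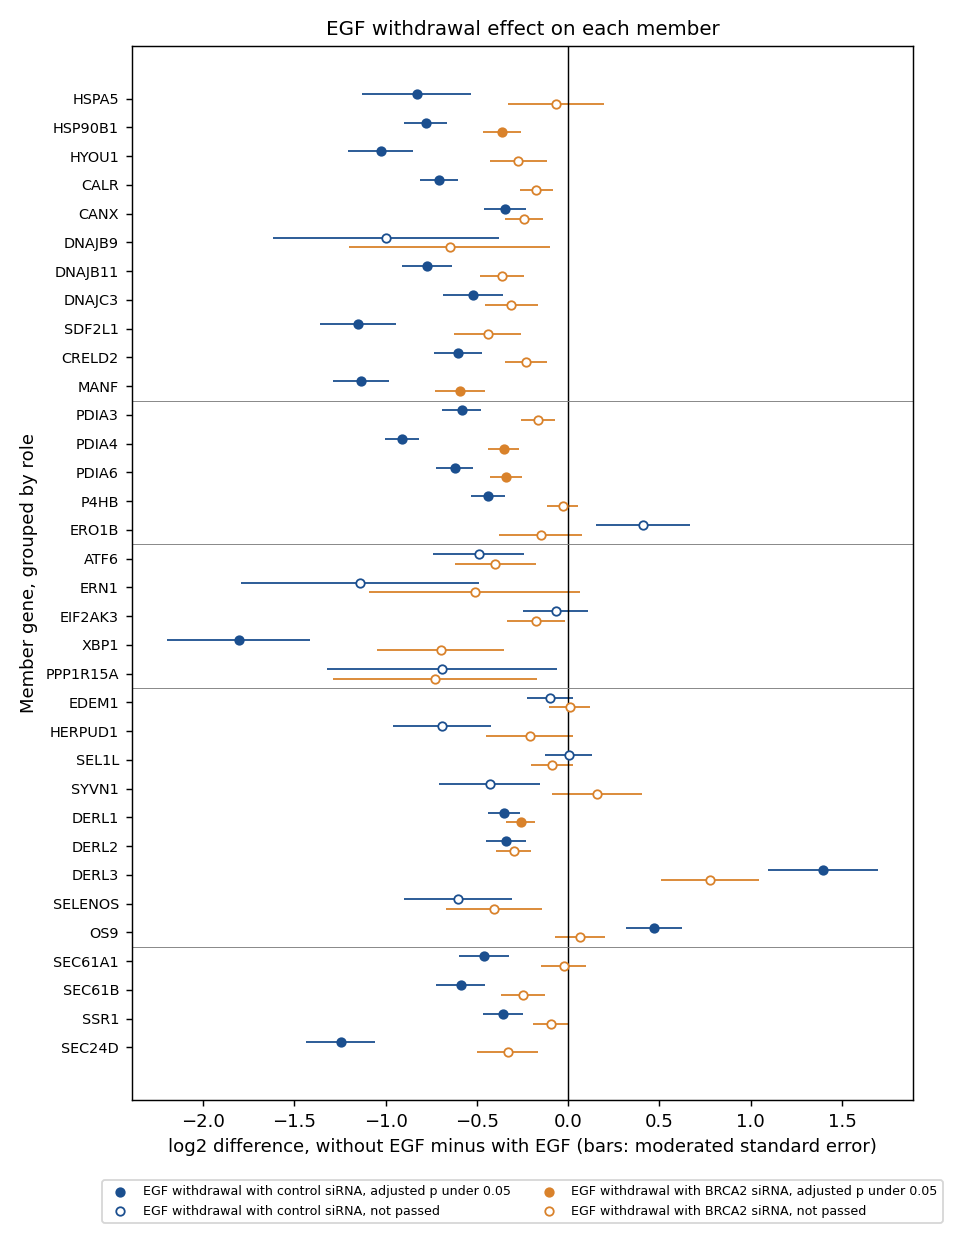
Each row is 1 of the 34 genes in its role group, and the horizontal axis is the fitted log2 difference, without EGF minus with EGF, with bars of 1 moderated standard error. Blue is control siRNA and orange BRCA2 siRNA, with filled points where the adjusted p was under 0.05; 23 blue and 5 orange points are filled, and 30 of the 34 points of each colour lie left of 0.

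With BRCA2 siRNA the same withdrawal gave few calls among these genes. Of the 34, 5 fell (HSP90B1, MANF, PDIA4, PDIA6 and DERL1) and none rose, with a median of -0.25. In this fit 14.7% of the 34 fell, and of all genes tested 11.2% fell and 10.7% rose. How far the set stands from that background depended on the libraries and the model used, as given below. Every library without EGF lay below every library with it for 11 of the 34 genes, against 24.4% of all genes, and 21 were lower in each of replicates A, B and C, against 29.4%. PDIA4 was at 14.16, 13.95 and 13.95 with EGF and 13.73, 13.69 and 13.58 without, groups that did not overlap, with a fall of -0.35 ± 0.08 (adjusted p = 0.0155). SEC24D was at 12.53, 12.53 and 12.30 with EGF and 12.39, 12.05 and 11.93 without, which overlapped (-0.33 ± 0.17, adjusted p = 0.174). DERL3 was at 3.25, 4.25 and 3.55 with EGF and 4.70, 4.67 and 4.02 without, also overlapping (0.78 ± 0.27, adjusted p = 0.0607). The count of 5 was unstable: it became 0 without BRCA2 siRNA replicate A with EGF or without EGF, 1, a rise, without BRCA2 siRNA replicate C lacking EGF, 2 without BRCA2 siRNA replicate B lacking EGF, 3 without control replicate A with EGF or control replicate A or C lacking EGF, and 10 without control replicate B with EGF.

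The difference between the 2 withdrawal effects was tested as an interaction (effect with BRCA2 siRNA minus effect with control siRNA). It passed for 1 gene of the 34, PDIA4, at 0.56 ± 0.12 (adjusted p = 0.0461). The sign means a smaller fall with BRCA2 siRNA. Over all genes tested 1.15% had a higher and 1.63% a lower interaction past the threshold. The median interaction was 0.36 over the 34 genes and 0.02 over all genes. Of the 34 genes 28 were above 0, against 9345 of all 17945. The lean was not particular to the set. In lists described below, 27 of 29 COPII and transport genes, 10 of 10 mitochondrial chaperones and 15 of 23 cytosolic heat shock chaperones were above 0. After PDIA4, CALR (0.53 ± 0.14, adjusted p = 0.0688) and SEC24D (0.92 ± 0.25, adjusted p = 0.0829) came next. The PDIA4 call held when control replicate C with EGF was left out and ended when any other single library was, with adjusted p from 0.0554 to 0.283. For the other 33 genes the arms were not shown to differ in this fit. Without both libraries with EGF of replicate B the interaction passed for 8 of the 34, all higher, where 4.86% of all genes were higher past the threshold. Without those of C it passed for 3, all higher, where 2.72% of all genes were.

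**Figure D3:**
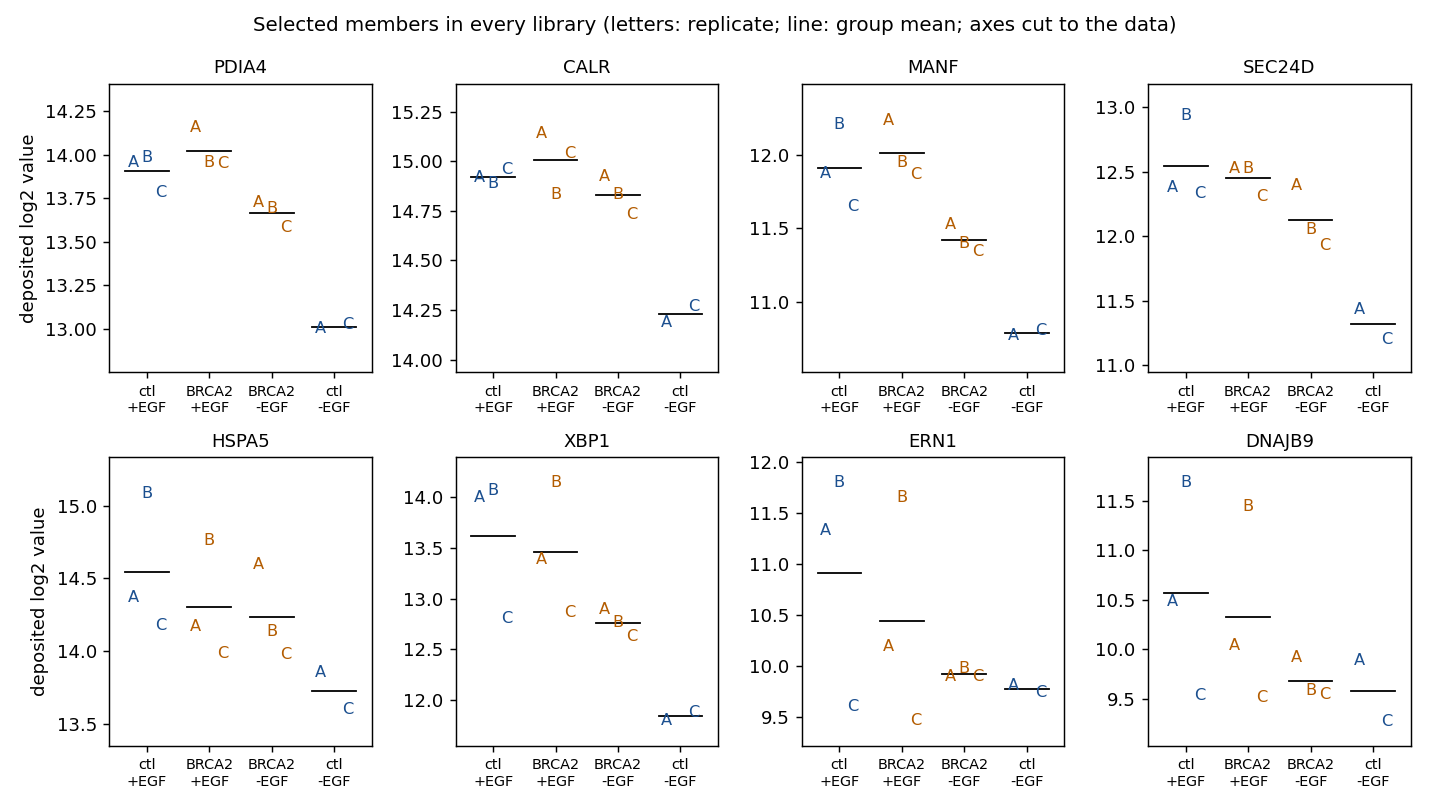
Deposited log2 values of 8 genes in each of the 11 libraries, drawn as replicate letters, blue for control siRNA and orange for BRCA2 siRNA, with a line at each group mean. The vertical axes are cut to the data and differ between panels; in PDIA4, CALR, MANF and SEC24D the 2 control libraries without EGF lie lowest, and in XBP1, ERN1 and DNAJB9 replicate C with EGF lies more than 1 unit below replicate B.

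With EGF present none of the 34 genes passed the test between the siRNA labels (limma), and 0% of all 17945 genes were called lower and 0% higher. At an unadjusted p under 0.05 there were 374 genes in all (2.08%) and none of the 34. The log2 differences of the 34 ran from -0.47 ± 0.58 (ERN1) to 0.16 ± 0.23 (ERO1B). For PDIA4 the difference was 0.11 ± 0.08, for CALR 0.08 ± 0.09 and for HSPA5 -0.24 ± 0.27. This fit did not pair B and C, so its errors hold the spread between these letters that both labels shared. Within replicates A, B and C, HSPA5 differed by -0.20, -0.32 and -0.20 and SYVN1 by -0.57, -0.47 and -0.29. PDIA4 differed by 0.21, -0.03 and 0.17 and CALR by 0.22, -0.05 and 0.08. With a replicate block none of the 34 and none of all genes passed either.

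Without EGF many of the folding genes were higher under the BRCA2 siRNA label than under the control label. Of the 34, 12 rose and none fell, with a median of 0.28, where 9.63% of all genes rose and 7.97% fell. The 12 were 7 lumenal chaperones and partners (HSP90B1, HYOU1, CALR, DNAJB11, SDF2L1, CRELD2 and MANF), 4 isomerases (PDIA3, PDIA4, PDIA6 and P4HB) and SEC24D. PDIA4 was higher by 0.67 ± 0.09 (adjusted p = 0.00235), CALR by 0.61 ± 0.10 (adjusted p = 0.0045), P4HB by 0.46 ± 0.09 (adjusted p = 0.0106) and SEC24D by 0.83 ± 0.19 (adjusted p = 0.0153). None of the 5 sensor, factor and feedback genes and none of the 9 ERAD genes passed: XBP1 differed by 0.95 ± 0.39 (adjusted p = 0.122), DERL3 by -0.74 ± 0.30 (adjusted p = 0.117) and OS9 by -0.39 ± 0.15 (adjusted p = 0.106). In groups this small that is near the 17.6% of all genes that passed here, so no split between roles was shown. Every BRCA2 siRNA library lay above both control libraries for 22 of the 34 genes, against 33.2% of all genes.

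This comparison shares its 2 control libraries with the withdrawal comparison in control cells, so the values of both rest on the same pair. Without control replicate A lacking EGF, 0 of the 34 passed, and 164 of all genes did. Without control replicate C lacking EGF 2 passed, and without BRCA2 siRNA replicate A or B lacking EGF 2 and 3. BRCA2 mRNA was itself higher in the BRCA2 siRNA libraries of this comparison, as given above.

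The libraries with EGF also differed among themselves, most widely for a few of the response genes. The median range inside a group over the 34 genes was 0.48 in the 3 control libraries with EGF and 0.32 in the 3 BRCA2 siRNA libraries with EGF, and it was 0.22 in the 3 BRCA2 siRNA libraries without EGF. The 2 control libraries without EGF had a median range of 0.08, which with 2 libraries is not comparable. Replicates B and C, which the centring leaves comparable with each other, were set side by side. With EGF, B was above C for 32 of the 34 genes under control siRNA (median 0.43) and for 31 under BRCA2 siRNA (median 0.22), where the medians over all genes were 0.02 and -0.00. Without EGF, under BRCA2 siRNA, the median was 0.10.

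B exceeded C by more than 1 log2 unit in both groups with EGF for 4 of the 34, PPP1R15A, ERN1, DNAJB9 and XBP1, and for 234 of all genes (1.3%). PPP1R15A was higher in B by 2.28 under control siRNA and 1.96 under BRCA2 siRNA. ERN1 was higher by 2.19 and 2.18, DNAJB9 by 2.15 and 1.93, and XBP1 by 1.26 and 1.28. These 4 belong to the IRE1 and PERK arms or their feedback, but EIF2AK3, the gene of PERK, was higher in B by only 0.43 and 0.39. Genes of other kinds shared the difference. The epithelial marker CLDN1 was at 10.66 in B and 8.62 in C under control siRNA, and at 10.55 and 8.02 under BRCA2 siRNA. Whether the 234 genes favour any pathway was not tested. Without EGF only BRCA2 siRNA has both letters. There B exceeded C by more than 1 for none of the 34 and for only 0.106% of all genes. Several folding genes differed little: PDIA4 was higher in B by 0.20 and 0.00, and CALR was lower in B by -0.07 and -0.21. HSPA5 was between, at 0.90 and 0.78. With 1 library per letter and group these are differences between libraries with no test, and the labels name nothing that sets B apart from C.

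**Figure D4:**
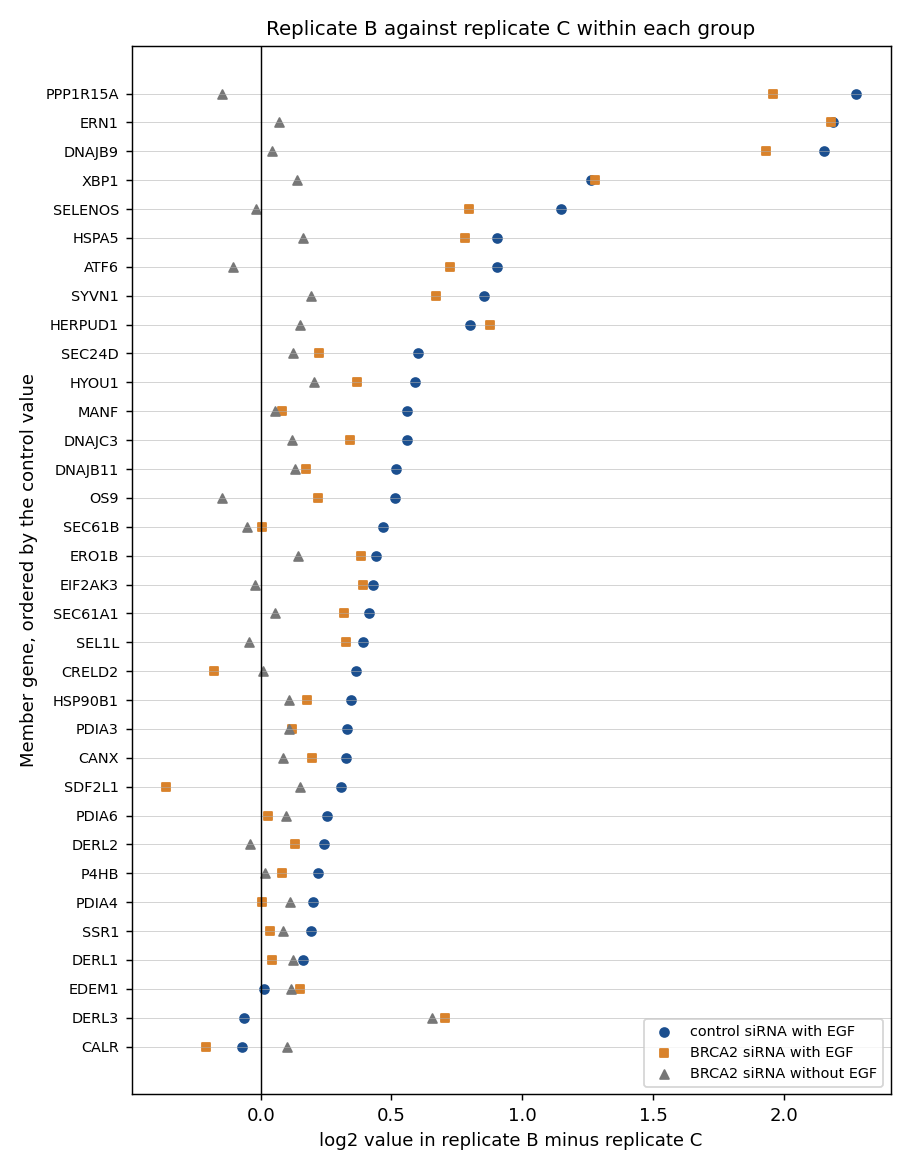
Each row is 1 of the 34 genes, ordered by the control value, and the horizontal axis is the log2 value of replicate B minus that of replicate C in the 3 groups that have both letters. PPP1R15A, ERN1, DNAJB9 and XBP1 lie above 1 in both groups with EGF (circles and squares) and near 0 without EGF (triangles).

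Both libraries with EGF of replicate B, then of replicate C, were left out to see what this spread does to the counts, a check chosen after the data were seen. In control cells 23 fell and 2 rose without those of B, where 27.8% of all genes fell and 23.3% rose. Without those of C 27 fell and 2 rose, against 29.2% and 25.6% of all genes. Under BRCA2 siRNA 11 fell and 2 rose without those of B, against 15.1% and 11.9% of all genes, and 15 fell and none rose without those of C, against 18.9% and 15.2%.

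The promoters printed above divide the set by a feature that the expression values did not use. Of the 10 genes with an ER stress element, 8 fell with EGF withdrawal in control cells, with a median of -0.74; HERPUD1 and ERO1B did not pass. Of the 20 genes with a promoter entry and no element, 10 fell and 1 rose, with a median of -0.51. Over all genes tested 24.4% fell and 22.6% rose there. In BRCA2 siRNA cells 1 of the 10 and 3 of the 20 fell, against 11.2% of all genes, with medians of -0.24 and -0.31. Without EGF, BRCA2 siRNA against control, 5 of the 10 and 5 of the 20 rose, against 9.63% of all genes. MANF and PDIA4, 2 of the steadiest genes, had a CCAAT box and none of the longer elements in the window. These counts are a description of 30 genes and carry no test.

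Neighbouring ER genes that are no members were read from lists of textbook genes. With EGF withdrawal in control cells, 15 of 33 further folding and disulfide genes fell and 2 rose (median -0.36), 12 of 30 genes of glycan quality control and ERAD fell and 1 rose (-0.28), and 12 of 25 genes of translocation and signal peptide cleavage fell and 1 rose (-0.31). Of the oligosaccharyltransferase, which adds the glycans, 8 of 12 genes fell and none rose (-0.36), and of COPII and ER to Golgi transport 16 of 29 fell and 1 rose (-0.33). Of sensor partners and proteases, 10 of 22 fell and 2 rose (-0.35). With BRCA2 siRNA the counts that fell were 4, 3, 6, 2, 8 and 3 in the same order, to be read against the 11.2% of all genes that fell there and the 24.4% in control cells. SSR3, another subunit of the TRAP complex, fell by 1.56 ± 0.11 in control cells and by 0.75 ± 0.10 with BRCA2 siRNA, and its interaction of 0.81 ± 0.15 passed (adjusted p = 0.0282). SEC61G, the third subunit of the SEC61 channel, fell by 1.09 ± 0.15 and SEC13 of the COPII coat by 0.89 ± 0.09. BLOC1S1, whose mRNA IRE1 is known to cut, differed by -0.32 ± 0.24 in control cells (adjusted p = 0.301).

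The genes under PERK, ATF4 and CHOP form an arm of which the 34 genes hold few. In control cells 12 of 20 fell and 1 rose with EGF withdrawal, with a median of -1.18, against 24.4% and 22.6% of all genes. ATF4 fell by 1.47 ± 0.14 (adjusted p = 4.4e-05), and its targets CHAC1, TRIB3 and ASNS fell too, with log2 differences of -3.91 ± 0.49, -2.90 ± 0.55 and -2.92 ± 0.49. DDIT3, the gene of CHOP, differed by -1.45 ± 0.56 and did not pass (adjusted p = 0.0551). With BRCA2 siRNA 2 of 20 fell and 1 rose, against 11.2% and 10.7% of all genes. The ATF4 interaction was 0.97 ± 0.19 (adjusted p = 0.0307). ATF4 also responds to amino acid supply and to growth signals outside the ER, so this list is not specific to unfolded protein.

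Several members overlap a neighbouring gene. In GENCODE v29, 19 of the 34 genes have an exon that overlaps another gene, in each of the 19 at least 1 of them on the opposite strand, and whether the counting used strand is not given in the sources used here; without strand, reads from both genes cannot be told apart. Of the 23 genes with a call in control cells, CALR, CANX, CRELD2, DERL1, DERL2, DERL3, DNAJB11, HSP90B1, HYOU1, OS9, P4HB, PDIA3, PDIA6, SEC61A1 and SSR1 are among these 19, and HSPA5, DNAJC3, SDF2L1, MANF, PDIA4, XBP1, SEC61B and SEC24D are not.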

How the data were processed

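The authors deposited 1 table, with 11 libraries and 40460 Ensembl genes, whose values are on a log2 scale, from -2.94 to 20.62, with no counts, so depth is unknown and no interval or floor from counts is given. Per the submitters' processing notes, hg19, TopHat2 2.0.11, DESeq2 and limma were used, with no role or order; for the counter, annotation and transform the sources used here give no name. In all 40460 genes the mean of the 4 replicate A libraries equalled that of the 7 B and C libraries (largest difference 7.2e-09), a centring that took no account of the groups.

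Values were used as deposited. Genes at 3.32 (10 on the linear scale) or more in at least 2 libraries were tested. A linear model of 4 groups with a term for replicate A was fitted with limma 3.58.1 (R 4.3.3) over all 11 libraries, leaving 6 residual degrees of freedom, with moderated errors that follow a mean-variance trend; tests were two-sided, with Benjamini-Hochberg adjustment over all 17945 genes and a threshold of 0.05. Errors after ± are moderated standard errors. On simulated data for withdrawal in control cells, over 17945 genes, 14 of 50 genes changed by 0.5, 27 of 50 by 1, 33 of 50 by -1 and 48 of 50 by 2 were recovered. Only these genes were changed, whereas 47% of all genes were called in the real comparison, and the simulated errors were independent between libraries. The recovered shares are therefore not the power of the real fit.

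Symbols came from a gene table of RefSeq names (30039 genes, 74.2%). The 34 members, the lists and the tests were chosen with earlier results of these data known. Members may all be named; those shown library by library are the smallest and largest p of each role in control cells, and HSPA5, CALR, ERN1 and OS9 were added after their values were seen. From each pathway list up to 4 genes with the smallest p in each withdrawal comparison may be named, besides ERO1A, DDIT3, ATF4, TRIB3 and BLOC1S1. Alternatives were quantile normalization, no filter or a stricter one (log2 of 6), no term for A, replicate as a block, only replicates B and C, only the groups compared, no trend, and leaving out each library; leaving out both libraries with EGF of replicate B or of C was added later. Protein sequences were not analysed here.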

Additional observations from a re-analysis of the deposited data

Results flagged for a closer look

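PDIA4 was the 1 gene of the 34 whose EGF withdrawal effect differed between the siRNA labels by the test of the difference itself: the limma interaction was 0.56 on the log2 scale (adjusted p = 0.0461), with falls of -0.91 under control siRNA and -0.35 under BRCA2 siRNA. It was lower without EGF in 2 of 2 control replicates (by -0.95 and -0.76 in A and C) and in 3 of 3 BRCA2 siRNA replicates (by -0.43, -0.26 and -0.37 in A, B and C). The call ended in 10 of 11 fits that left out 1 library (adjusted p up to 0.283; it held without control replicate C with EGF), under quantile normalization, with only replicates B and C and without the mean-variance trend. Over the other alternatives 1 to 8 of the 34 genes passed.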

How the results depend on the processing

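Of the 34 genes, the counts past the threshold were 23 (control withdrawal), 5 (BRCA2 siRNA withdrawal), 0 and 12 (BRCA2 siRNA with and without EGF) and 1 (interaction); over all genes they were 8433, 3938, 0, 3160 and 500. With only replicates B and C the member counts were 5, 0, 0, 0 and 0 and those of all genes 2074, 47, 0, 0 and 0, in a fit with 3 residual degrees of freedom. With only the groups compared, control withdrawal gave 13 members and 5577 genes, and BRCA2 siRNA without EGF 21 and 6553. Quantile normalization left 16 members in control withdrawal (7361 genes), where the member median moved from -0.60 to -0.40. It left 1 member in BRCA2 siRNA withdrawal (3139 genes) and 0 in the interaction (601 genes). Without the term for A there were 8 in BRCA2 siRNA withdrawal (4871 genes). Without the trend 3 remained there (3529 genes) and 0 in the interaction (271 genes). BRCA2 siRNA with EGF gave 1 gene in all under no filter, without the term for A and without the trend. Without the EGF libraries of B, BRCA2 siRNA withdrawal gave 13 members, BRCA2 siRNA without EGF 19 (5492 genes) and the interaction 8 (1552); without those of C, control withdrawal gave 9818 genes, BRCA2 siRNA withdrawal 15 (6125), BRCA2 siRNA without EGF 4887 genes and the interaction 3 (931). The cause was not tested in any of these. Leaving out each library gave 14 to 29, 0 to 10, 0 to 0, 0 to 16 and 0 to 4 members, and 4724 to 9354, 1446 to 5240, 0 to 0, 164 to 4100 and 0 to 1032 genes.

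Replicate letters were shared between groups. Deviations of same-letter libraries from their group mean correlated by more than 0.1 in 2 of 15 pairs (from -0.37 to 0.70). Both, at 0.70, were between the siRNA labels with EGF, B with B and C with C. The centring acts on the pairs of A, so those pairs cannot decide on pairing. With EGF, B and C each went with the same letter under the other label, so these 2 groups shared spread by letter. Between the media under BRCA2 siRNA they did not, at -0.11 for B with B and 0.02 for C with C. Beyond its term for A, the main fit did not take the letters as pairs. With a replicate block, BRCA2 siRNA withdrawal gave 11 members (5459 genes) and the interaction 4 (930 genes).

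Members with no call changed sign in control withdrawal: ERO1B to -0.04 (B and C only) and -0.03 (without control replicate A lacking EGF; -0.03 to 0.92 over single libraries left out); EIF2AK3 to 0.10 (quantile normalization, and without the B libraries with EGF), 0.00 (block) and -0.27 to 0.10 (single libraries left out, among them 0.02); EDEM1 to 0.13 (quantile normalization); SEL1L to -0.09 (B and C only), -0.08 (without the C libraries with EGF) and -0.08 to 0.12 (single libraries left out, among them -0.05, -0.07 and -0.00). The share of risers among called genes in control withdrawal was 48.2%, and 38.0% with the stricter filter (2580 rose, 4209 fell); in BRCA2 siRNA without EGF it was 54.7%, and 44.5% with no filter (1198 rose, 1492 fell).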

Other observations

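Chaperones of other compartments were read beside the ER genes, from lists fixed for comparison. Of 10 mitochondrial chaperones, 9 fell and none rose with EGF withdrawal in control cells (median -0.93), among them HSPD1 by 1.03 ± 0.10 and GRPEL1 by 1.21 ± 0.15, and 5 fell with BRCA2 siRNA. Of 23 cytosolic heat shock chaperones 12 fell and 5 rose in control cells (median -0.49), and 6 fell and 2 rose with BRCA2 siRNA. Over all genes tested 24.4% fell and 22.6% rose in control cells, and 11.2% fell and 10.7% rose with BRCA2 siRNA. The cytosolic chaperones that fell include subunits of the TRiC chaperonin, CCT5 by 1.05 ± 0.09 and TCP1 by 0.96 ± 0.09. The small heat shock proteins CRYAB and HSPB1 rose, by 2.62 ± 0.21 and 1.84 ± 0.16 in control cells and by 1.16 ± 0.18 and 0.62 ± 0.14 with BRCA2 siRNA. Their interactions, -1.45 ± 0.28 (adjusted p = 0.0292) and -1.22 ± 0.21 (adjusted p = 0.0224), passed the threshold in limma.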
